A study of Mus musculus with 15 samples.

Results

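The transcriptome of mouse skin that received phenylarsine oxide (PAO) and then the HSP90 inhibitor SNX-5422 was compared with that of vehicle-treated skin, to describe which genes still differed from vehicle skin when the inhibitor followed the arsenical. RNA-seq counts came from whole dorsal skin of male SKH-1 hairless mice, taken at 24 h. In the SNX-5422+PAO group, PAO was applied in ethanol at 100 µg per mouse, or 25 µg/cm2, in 30 µL over 2 × 2 cm of anaesthetised dorsal skin, and SNX-5422 was put on the injured area 15 min later at 20 mg/kg. The PAO group received the same PAO dose without the inhibitor, and the Control group received ethanol alone. What the PAO and Control animals were given in place of SNX-5422 is not stated. Each group had 3 libraries, so the comparison rests on 6 of the 15 libraries of the series, with the 3 PAO libraries as a second point of reference. The other 6 libraries, of skin exposed to CEES at 2 mg per mouse with or without SNX-5422, entered only the estimate of spread. SNX-5422 was given only after an agent in the groups used here, so an effect of the inhibitor itself and an effect on the injury cannot be told apart.

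PAO is a trivalent arsenical that binds pairs of neighbouring thiols in proteins, and arsenicals of this kind blister skin. Thiol damage frees the transcription factor HSF1 from HSP90 and other chaperones, and NRF2 from its inhibitor, and the freed factors raise chaperone and antioxidant genes. Metals raise metallothionein genes through the factor Mtf1. HSP90 holds many kinases and transcription factors in an active shape, and its inhibition can itself induce heat shock genes. In the epidermis, basal keratinocytes carrying Krt5 and Krt14 divide, switch to Krt1 and Krt10 as they leave the basal layer, and then make the loricrin, filaggrin and lipids of the cornified barrier.

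Reads assigned to genes ranged from 18.1 M to 20.5 M per library in SNX-5422+PAO skin and 16.8 M to 28.9 M in Control skin. Basal keratinocyte genes took 0.956% ± 0.0133 of gene counts in SNX-5422+PAO skin, 1.06% ± 0.0274 in PAO skin and 1.20% ± 0.0483 in Control skin (SD, n = 3 each), so keratinocyte RNA of the labelled tissue was present in each group. Fast-fibre muscle genes took 10.1% ± 0.849 in SNX-5422+PAO skin, 8.27% ± 0.265 in PAO skin and 8.15% ± 2.27 in Control skin. Mitochondrial ribosomal RNA took 15.6% ± 2.88 of gene counts in SNX-5422+PAO skin, 13.4% ± 4.01 in PAO skin and 7.44% ± 0.80 in Control skin. It moved with treatment, and a fit with this share as a covariate gave 289 raised and 163 lowered genes. Library 3 held an intermediate place in each of the 3 groups. Among genes above 10 CPM on average that spanned more than 2-fold within a group, library 3 lay between libraries 1 and 2 for 96.6% of 145 genes in SNX-5422+PAO skin, 98.6% of 207 in PAO skin and 86.6% of 232 in Control skin. The labels do not say that libraries came from separate animals, so the p-values reflect only the scatter of these libraries, part of which may be technical. The same held for 98.1% of 159 genes in the SNX-5422+CEES libraries, which entered the estimate of spread, and for 43.2% of 125 genes in CEES skin. Whether library 3 of a group is independent of libraries 1 and 2 was not tested, so independent libraries may number 2 rather than 3 a group, and p-values that rest on 3 may be too small. For lists with calls against Control, counts are given without library 3 of every group as well. List counts against PAO skin are given with all 3 libraries only. Values of single genes are CPM (read counts scaled to a common library size, with TMM factors), in the order of libraries 1, 2 and 3. Marker sums given in CPM leave out the TMM factors. Fold changes are log2 values, positive where SNX-5422+PAO skin was higher, with the standard error after the ± sign. CPM is not divided by gene length, so levels are compared between samples and not between genes. Overlap of libraries is described for single genes, without the share of all genes tested that overlap or not.

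Of 22529 genes tested, 2404 (10.7%) were raised and 1952 (8.66%) were lowered in SNX-5422+PAO skin against Control skin, 19.3% in all (edgeR quasi-likelihood test, adjusted p under 0.05), and 486 and 885 of these passed a 2-fold change. The median log2 fold change over all genes tested was 0.01. With library 3 of every group left out, 119 genes were raised and 164 were lowered, all of them among the genes called with 3 libraries. Upper-quartile scaling gave 1698 raised and 2414 lowered genes. Scaling by total counts shifted the median of all genes to -0.33, and list medians between 0 and 0.26 below turn negative with that shift. Against PAO skin, 579 genes (2.57%) were higher and 764 (3.39%) were lower in SNX-5422+PAO skin (5.96% in either direction), with 3 and 2 left when library 3 was left out. Of the list members called against PAO skin below, at most these 3 and 2 could be left without library 3. The 12 largest rises were Igfn1, Myh7, Tnnc1, Myl2, Ankrd1, Ankrd2, Tnni1, Klhl40, Saa3, Xirp1, Mybph and Mustn1, of which Saa3 is an acute-phase gene and the others are genes of striated muscle or of its repair. The 12 largest falls were Krtap4-9, Krt2, Skint9, Krtap4-1, Serpina12, Krtap9-3, Krtap4-6, Lypd5, Adh6a, Lor, Krtap4-8 and Kprp, most of them genes of the upper epidermis or hair shaft. Both sets of 12 were taken only from called genes without overlap between SNX-5422+PAO and Control libraries. For these genes, here and below, that separation is a condition of the choice and not a result. Krtap genes have near-identical copies between which reads may be split, so their values are uncertain.

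Values for 7 of these genes that are not given with a gene group follow. Krt2, a keratin of the upper spinous and granular layers, was at 0.853, 0.415 and 1.15 CPM in SNX-5422+PAO skin, 0.555, 0.192 and 0.91 CPM in PAO skin and 14.9, 4.22 and 16.2 CPM in Control skin. Krt2 fell by 3.88 ± 0.66 on the log2 scale (adjusted p = 0.00087). Serpina12, which encodes the protease inhibitor vaspin that blocks Klk7, was at 1.59, 0.237 and 1.55 CPM in SNX-5422+PAO skin, 2.05, 2.63 and 2.07 CPM in PAO skin and 14.8, 8.87 and 14.5 CPM in Control skin. Serpina12 fell by 3.50 ± 0.44 on the log2 scale (adjusted p = 8.4e-05). Kprp, a proline-rich protein of keratinocytes, was at 21.7, 7.06 and 16.3 CPM in SNX-5422+PAO skin, 30.9, 20.6 and 25.3 CPM in PAO skin and 177, 76 and 138 CPM in Control skin. Kprp fell by 3.12 ± 0.36 on the log2 scale (adjusted p = 4.8e-05). None of these 3 overlapped between SNX-5422+PAO and Control skin, as the naming rule required. Adh6a, an alcohol dehydrogenase, was at 1.14, 1.48 and 1.41 CPM in SNX-5422+PAO skin, 6.72, 4.87 and 4.15 CPM in PAO skin and 17.2, 4.18 and 16.4 CPM in Control skin (log2 fold change -3.22 ± 0.51, adjusted p = 0.00049), and Lypd5 was at 4.44, 2.31 and 5.12 CPM in SNX-5422+PAO skin, 12.3, 10.6 and 11.5 CPM in PAO skin and 53.7, 20.9 and 44.7 CPM in Control skin. Lypd5 fell by 3.33 ± 0.32 on the log2 scale (adjusted p = 9.7e-06). At the other end, Klhl40, which stabilises thin-filament proteins in muscle, was at 209, 182 and 174 CPM in SNX-5422+PAO skin, 119.9, 62.2 and 108 CPM in PAO skin and 8.87, 22 and 14.7 CPM in Control skin. Klhl40 rose by 3.63 ± 0.30 on the log2 scale (adjusted p = 1.8e-06). Ankrd2, a strain-responsive gene of slow fibres, was at 188, 84.8 and 119 CPM in SNX-5422+PAO skin, 259.6, 151 and 219 CPM in PAO skin and 9.46, 9.61 and 8.68 CPM in Control skin. Ankrd2 rose by 3.83 ± 0.26 on the log2 scale (adjusted p = 2.7e-07). For both muscle genes all SNX-5422+PAO libraries lay above all Control libraries, again by the naming rule.

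**Figure D1:**
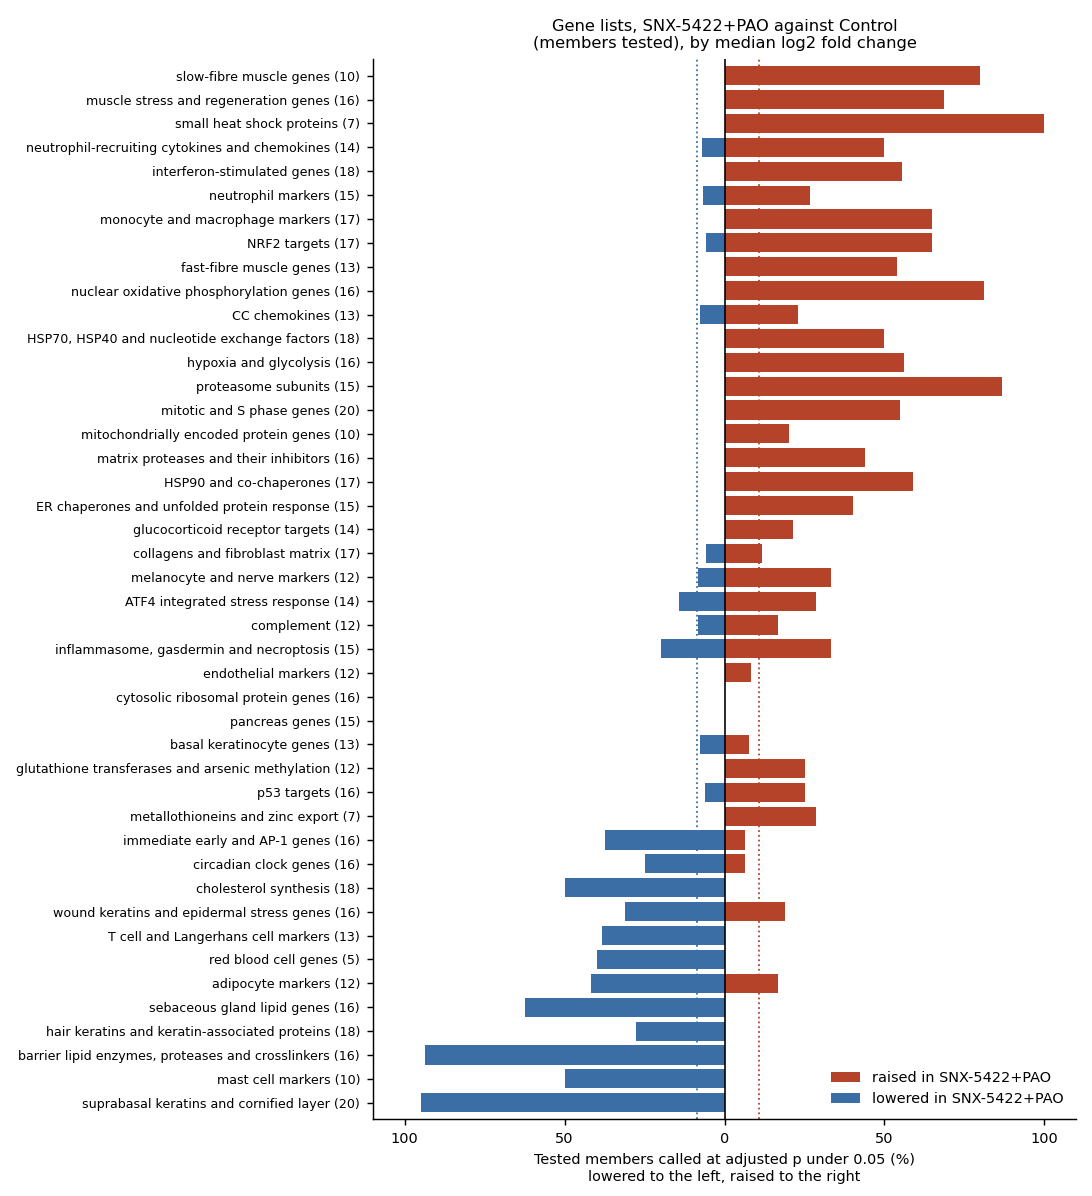
Share of the tested members of 44 gene lists that passed adjusted p under 0.05 in SNX-5422+PAO against Control skin, with raised members to the right and lowered members to the left (%, number tested in brackets). Dotted lines mark the shares over all genes, 10.7% raised and 8.66% lowered; lists run from the highest median log2 fold change at the top, that of slow-fibre muscle genes at 3.22, to the lowest at the bottom, that of cornified layer genes at -2.27.

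Genes of the suprabasal and cornified layers fell almost throughout. Of 20 measured, 19 fell and none rose, with a median log2 fold change of -2.27, and 13 still fell without library 3. With the mitochondrial ribosomal RNA share as a covariate 5 fell. Krt10, the keratin of cells that have left the basal layer, was at 282, 178 and 266 CPM in SNX-5422+PAO skin, 332, 288 and 287 CPM in PAO skin and 1621, 905 and 1476 CPM in Control skin. The highest SNX-5422+PAO library was below the lowest Control library, and Krt10 fell by 2.46 ± 0.27 on the log2 scale (adjusted p = 2.7e-05). Loricrin (Lor), the main protein of the cornified envelope, was at 15.9, 8.36 and 15.2 CPM in SNX-5422+PAO skin, 25.4, 26 and 27.8 CPM in PAO skin and 146, 68.5 and 149 CPM in Control skin. Lor fell by 3.20 ± 0.32 on the log2 scale (adjusted p = 1.1e-05), again without overlap of SNX-5422+PAO and Control libraries. Library 2 was the lowest for Lor in both SNX-5422+PAO and Control skin. Filaggrin (Flg), which bundles keratin filaments and is later broken down to moisturising factors, was at 75.3, 94.1 and 116 CPM in SNX-5422+PAO skin, 96.5, 85.8 and 84.6 CPM in PAO skin and 384, 265 and 392 CPM in Control skin. Flg fell by 1.87 ± 0.27 on the log2 scale (adjusted p = 0.00025). Krt77, a suprabasal keratin, fell by 3.02 ± 0.30 and Krt80 fell by 1.67 ± 0.16 on the log2 scale. The member that did not pass was repetin (Rptn), at 14, 11.4 and 17.7 CPM in SNX-5422+PAO skin, 3.77, 6.92 and 4.35 CPM in PAO skin and 17.6, 9.24 and 18.1 CPM in Control skin (adjusted p = 0.92 against Control). Rptn was higher than in PAO skin (log2 fold change 1.53 ± 0.36, adjusted p = 0.019). In whole skin, fewer cells of a type and less RNA per cell cannot be told apart. The list's share of gene counts was 0.113% ± 0.0215 in SNX-5422+PAO skin, 0.150% ± 0.0193 in PAO skin and 0.603% ± 0.146 in Control skin. Against PAO skin, 2 of the 20 members were lower and 1 was higher. One of the lower members was corneodesmosin (Cdsn), an adhesion protein of the cornified layer, with 16.8, 7.53 and 14.9 CPM in SNX-5422+PAO skin, against 55, 22 and 42.1 CPM in PAO skin (log2 fold change -1.60 ± 0.37, adjusted p = 0.016). The other was involucrin (Ivl), an early envelope protein (log2 fold change -0.72 ± 0.19, adjusted p = 0.037).

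Enzymes that build and shed the barrier followed. Of 16, 15 fell and none rose, with a median of -1.23 (5 fell without library 3, and 6 with the mitochondrial ribosomal RNA share as a covariate). Klk7, a kallikrein protease that cuts the junctions of the cornified layer, was at 75.4, 76.1 and 77.5 CPM in SNX-5422+PAO skin, 106, 121 and 106 CPM in PAO skin and 205, 165 and 204 CPM in Control skin. The groups did not overlap, and Klk7 fell by 1.33 ± 0.11 on the log2 scale (adjusted p = 2.2e-06). Klk7 also was lower than in PAO skin (log2 fold change -0.54 ± 0.11, adjusted p = 0.0085). Alox12b, the lipoxygenase that starts the oxidation of barrier lipids, was at 2.5, 1.72 and 2.22 CPM in SNX-5422+PAO skin, against 18.8, 10.6 and 18.1 CPM in Control skin. Alox12b fell by 2.88 ± 0.29 on the log2 scale (adjusted p = 1.3e-05). Klk5, which activates Klk7, was at 3.19, 2.25 and 4.04 CPM in SNX-5422+PAO skin, against 20.1, 14.1 and 19.1 CPM in Control skin. Klk5 fell by 2.50 ± 0.25 on the log2 scale (adjusted p = 1.3e-05). Transglutaminase 1 (Tgm1), which crosslinks the envelope, was at 8.87, 11.5 and 13.1 CPM in SNX-5422+PAO skin, 24.4, 23.9 and 21.1 CPM in PAO skin and 46.4, 27.2 and 40.5 CPM in Control skin. Tgm1 fell by 1.77 ± 0.23 on the log2 scale (adjusted p = 0.00012) and was lower than in PAO skin (log2 fold change -1.05 ± 0.24, adjusted p = 0.014). Spink5, an inhibitor of these kallikreins, was lower than in PAO skin too (log2 fold change -0.83 ± 0.23, adjusted p = 0.043).

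**Figure D2:**
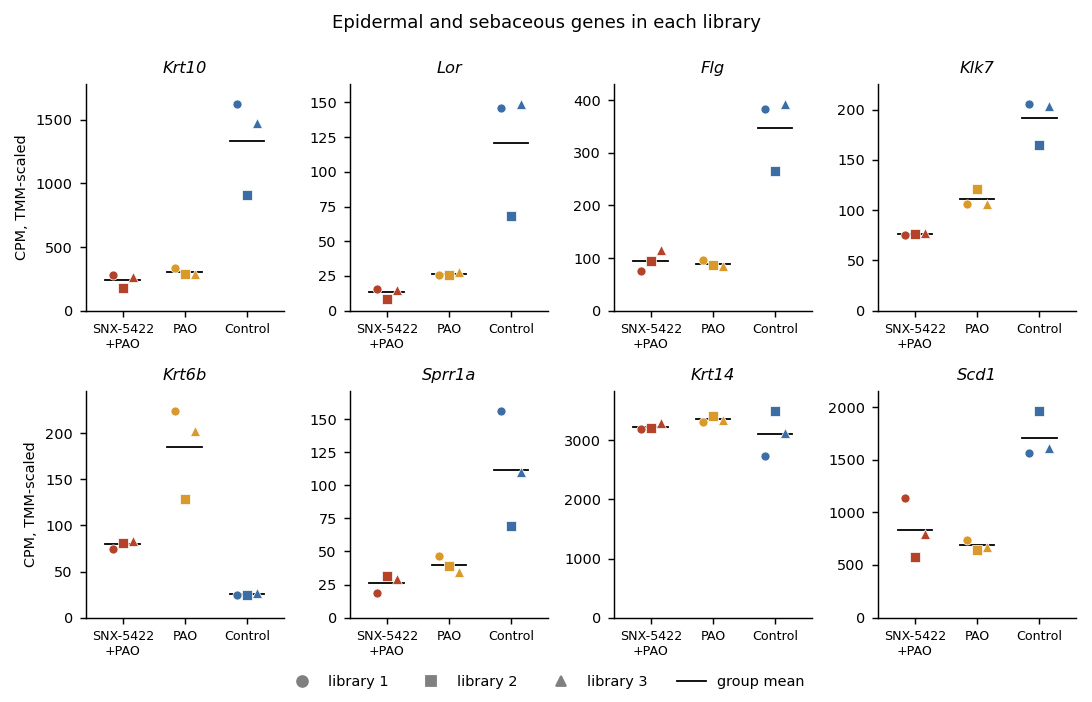
TMM-scaled CPM of 8 epidermal and sebaceous genes in each library, with SNX-5422+PAO at the left, PAO in the middle and Control at the right of each panel; shapes mark libraries 1 to 3 and the black line the group mean. Krt10, Lor, Flg, Klk7 and Sprr1a lay below every Control library in SNX-5422+PAO skin, Krt6b lay between PAO and Control skin, and Krt14 overlapped with Control.

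Basal keratinocyte genes stayed close to Control skin. Of 13, 1 rose and 1 fell, close to the shares over all genes, and the median was 0.08. With total counts 7 fell and none rose. Krt14 was at 3191, 3213 and 3290.5 CPM in SNX-5422+PAO skin, against 2729.8, 3491 and 3128 CPM in Control skin. Krt5 was at 2918, 3229 and 3252 CPM in SNX-5422+PAO skin, against 2748, 3486 and 3104 CPM in Control skin. Their log2 fold changes were 0.05 ± 0.12 and 0.01 ± 0.10, and the groups overlapped for both. Itgb4, a hemidesmosome integrin chain, rose (log2 fold change 0.29 ± 0.08, adjusted p = 0.024), and Col17a1, the hemidesmosome collagen, fell (log2 fold change -0.35 ± 0.10, adjusted p = 0.026). Neither call was left without library 3 (adjusted p = 0.33 for Itgb4 and 0.3 for Col17a1), and the Itgb4 value turned to -0.045 when libraries were scaled by total counts.

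Wound keratins were above Control skin, while envelope precursors and growth factors of this list fell. In this list of 16 tested genes, 3 rose and 5 fell, with a median of -0.59. Without library 3 none rose and 1 fell. The 3 that rose were the injury-induced keratins Krt6b, Krt6a and Krt16. Krt6b was at 74.6, 81.3 and 82.9 CPM in SNX-5422+PAO skin, 224, 129 and 202 CPM in PAO skin and 24.8, 24.8 and 27 CPM in Control skin. No group overlapped with another, and Krt6b rose by 1.64 ± 0.27 on the log2 scale (adjusted p = 0.00071), which was lost without library 3 (adjusted p = 0.08). Krt16 was at 229.8, 268 and 267 CPM in SNX-5422+PAO skin, 516, 409.6 and 491 CPM in PAO skin and 146, 153 and 147 CPM in Control skin. Krt16 rose by 0.78 ± 0.21 on the log2 scale (adjusted p = 0.016) and was lower than in PAO skin (log2 fold change -0.89 ± 0.21, adjusted p = 0.017). The fall with the smallest p was that of Sprr1a, a precursor of the cornified envelope, at 18.4, 31.7 and 29.2 CPM in SNX-5422+PAO skin, 46.9, 38.8 and 34.2 CPM in PAO skin and 156, 69.2 and 110.3 CPM in Control skin. Sprr1a fell by 2.08 ± 0.25 on the log2 scale (adjusted p = 6.3e-05). The epidermal growth factor receptor ligand epiregulin (Ereg) was at 1.42, 1.01 and 1.75 CPM in SNX-5422+PAO skin, 3.33, 3.46 and 3.29 CPM in PAO skin and 4.38, 2.83 and 4.63 CPM in Control skin. Ereg fell by 1.51 ± 0.24 on the log2 scale (adjusted p = 0.00053). Another such ligand, amphiregulin (Areg), was at 1.99, 2.19 and 2.69 CPM in SNX-5422+PAO skin, 10.2, 5.77 and 8.8 CPM in PAO skin and 4.01, 3.2 and 4.54 CPM in Control skin. Areg fell by 0.78 ± 0.25 on the log2 scale (adjusted p = 0.04) and was lower than in PAO skin (log2 fold change -1.85 ± 0.25, adjusted p = 0.00063). Against PAO skin 6 of the 16 members were lower and none was higher.

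Sebaceous and sterol genes were lowered too. Of 16 genes of sebaceous lipid synthesis, 10 fell and none rose, with a median of -0.93, and of 18 genes of cholesterol synthesis 9 fell and none rose, with a median of -0.42. None of these passed without library 3, and none passed with the mitochondrial ribosomal RNA share as a covariate. Dgat2, which makes triglycerides, was at 28.8, 20.7 and 22.4 CPM in SNX-5422+PAO skin, against 61.5, 40.2 and 55.3 CPM in Control skin. Dgat2 fell by 1.13 ± 0.17 on the log2 scale (adjusted p = 0.00042). Scd1, a desaturase abundant in sebaceous cells, was at 1137, 575 and 795 CPM in SNX-5422+PAO skin, 740.5, 644 and 672 CPM in PAO skin and 1559.9, 1960.0 and 1609.8 CPM in Control skin. Scd1 fell by 1.03 ± 0.23 on the log2 scale (adjusted p = 0.0057). Library 1 was the highest SNX-5422+PAO library for Scd1 and still lay below all 3 Control libraries. Dhcr7, the last enzyme of cholesterol synthesis, was at 37.2, 38.7 and 38.7 CPM in SNX-5422+PAO skin, against 67.2, 58.9 and 63.4 CPM in Control skin. Dhcr7 fell by 0.72 ± 0.10 on the log2 scale (adjusted p = 0.00012). Lanosterol synthase (Lss) fell by 0.65 ± 0.09 on the log2 scale. Against PAO skin none of the 18 cholesterol genes passed, and of the sebaceous list only Fabp5, a fatty acid carrier also made by keratinocytes, was lower (log2 fold change -0.66 ± 0.18, adjusted p = 0.043).

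Hair follicle genes varied between the libraries of SNX-5422+PAO skin. Of 18 hair keratins and keratin-associated proteins, 5 fell and none rose, with a median of -1.19, and none passed without library 3. Krt71, a keratin of the inner root sheath, was at 54.3, 436 and 326 CPM in SNX-5422+PAO skin, 329.6, 141 and 258 CPM in PAO skin and 770.0, 368 and 747 CPM in Control skin. Library 1 stood far below libraries 2 and 3 of SNX-5422+PAO skin, the groups overlapped, and Krt71 did not pass (adjusted p = 0.22). Krtap4-6 was at 0.739, 1.48 and 0.472 CPM in SNX-5422+PAO skin, against 15.8, 3.02 and 9.43 CPM in Control skin. Krtap4-6 fell by 3.36 ± 0.74 on the log2 scale (adjusted p = 0.0052). Krt72 was at 0.853, 11.7 and 8.15 CPM in SNX-5422+PAO skin, against 46.8, 21.5 and 40.5 CPM in Control skin. Krt72 fell by 2.40 ± 0.67 on the log2 scale (adjusted p = 0.02).

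Chaperone genes were higher in part in SNX-5422+PAO skin, and for HSP90 and its partners most calls rested on the scaling. Of 17 genes of HSP90 and its co-chaperones, 10 rose and none fell, with a median of 0.36. With scaling by total counts 1 rose and 4 fell, and the median was 0.03. The Hsp90aa1 call was kept with that scaling. The calls of Hsp90ab1, Hsp90b1 and Trap1 were lost, with values that stayed above 0. The inducible cytosolic form Hsp90aa1 was at 184, 135 and 159 CPM in SNX-5422+PAO skin, 245, 128 and 190.4 CPM in PAO skin and 70.4, 96.2 and 82.7 CPM in Control skin. All 3 SNX-5422+PAO libraries lay above all 3 Control libraries and inside the range of PAO skin. Hsp90aa1 rose by 0.94 ± 0.18 on the log2 scale (adjusted p = 0.0017). The constitutive form Hsp90ab1 was at 1253, 1020.1 and 1119 CPM in SNX-5422+PAO skin, against 863, 923 and 856 CPM in Control skin. Hsp90ab1 rose by 0.36 ± 0.09 on the log2 scale (adjusted p = 0.013). The endoplasmic reticulum form Hsp90b1 was at 212, 173 and 195 CPM in SNX-5422+PAO skin, against 141, 148 and 142 CPM in Control skin. Hsp90b1 rose by 0.43 ± 0.11 on the log2 scale (adjusted p = 0.012). The mitochondrial form Trap1 was at 77.2, 83.7 and 75.7 CPM in SNX-5422+PAO skin, against 58.6, 61.9 and 64.9 CPM in Control skin. Trap1 rose by 0.35 ± 0.08 on the log2 scale (adjusted p = 0.0043). For each of these forms every SNX-5422+PAO library was above every Control library, but the share of all genes so separated is not given here. Ahsa1, which stimulates the ATPase of HSP90, rose as well (log2 fold change 0.68 ± 0.13, adjusted p = 0.0027). None of the 10 calls was left without library 3, when the adjusted p of Hsp90aa1 was 0.13. Against PAO skin none of the 4 HSP90 genes passed, with log2 fold changes of -0.24 ± 0.17 for Hsp90aa1, -0.07 ± 0.09 for Hsp90ab1, -0.06 ± 0.11 for Hsp90b1 and 0.13 ± 0.08 for Trap1. The co-chaperone Fkbp5 was the only lower member against PAO skin (log2 fold change -0.47 ± 0.11, adjusted p = 0.022).

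Of 18 genes of the HSP70 and HSP40 families and their exchange factors, 9 rose and none fell, with a median of 0.51 (1 rose without library 3, and 4 rose and 2 fell with total counts). Bag3, an HSP70 partner that routes damaged proteins to autophagy, was at 179.9, 132 and 142 CPM in SNX-5422+PAO skin, 199, 134 and 166 CPM in PAO skin and 68.1, 67.2 and 60.1 CPM in Control skin. Bag3 rose by 1.22 ± 0.13 on the log2 scale (adjusted p = 2.4e-05). Hsph1, an HSP110 exchange factor, was at 109, 84.8 and 96.3 CPM in SNX-5422+PAO skin, against 36.6, 58.6 and 42.3 CPM in Control skin. Hsph1 rose by 1.08 ± 0.17 on the log2 scale (adjusted p = 0.00045). The stress-inducible genes Hspa1a and Hspa1b, whose coding sequences are nearly identical, did not pass. Hspa1b was at 106, 83.6 and 90.3 CPM in SNX-5422+PAO skin, 162, 91.6 and 145 CPM in PAO skin and 74.2, 87 and 82.5 CPM in Control skin. Hspa1b did not pass (log2 fold change 0.20 ± 0.16, adjusted p = 0.43). The SNX-5422+PAO and Control libraries overlapped. All 7 small heat shock proteins rose, with a median of 1.43, and 5 of them without library 3. The αB-crystallin gene Cryab, whose product keeps damaged filaments soluble in muscle and other tissues, was at 679.7, 496 and 576 CPM in SNX-5422+PAO skin, 899, 482 and 711 CPM in PAO skin and 102, 98.5 and 103 CPM in Control skin. Every SNX-5422+PAO library was above every Control library, and Cryab rose by 2.53 ± 0.19 on the log2 scale (adjusted p = 7.2e-07). The muscle-rich member Hspb7 was at 671, 502 and 546 CPM in SNX-5422+PAO skin, 809.8, 626 and 719.9 CPM in PAO skin and 126, 126 and 123 CPM in Control skin. Hspb7 rose by 2.19 ± 0.14 on the log2 scale (adjusted p = 1.9e-07). On the log2 scale Hspb8, the partner of Bag3, rose by 1.77 ± 0.20, Hspb1 by 1.20 ± 0.16, Hspb6 by 1.26 ± 0.15, Hspb3 by 1.40 ± 0.26 and Hspb2 by 1.43 ± 0.36. Against PAO skin none of the 7 passed.

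The mitochondrial chaperonin gene Hspd1 is shown with its promoter because it was the 1 raised member of the 3 chaperone lists whose promoter held a full heat shock element, the binding motif of HSF1. Hspd1 was at 181, 157 and 174 CPM in SNX-5422+PAO skin, against 77.4, 138 and 110.5 CPM in Control skin (log2 fold change 0.65 ± 0.15, adjusted p = 0.0071; the groups did not overlap). The motif searched was 3 alternating units, GAA then TTC then GAA or the reverse, with 2 free bases between units, on both strands of the 250 bases before the start. RefSeq promoters on GRCm38.p6 were at hand for 34 of the 42 chaperone genes, and 3 of these genes held it (Hspd1, Hspe1 and Dnajb6). Of all 32851 promoters 0.466% held it. A gene can have several promoters and was counted if any of them matched, so the gene counts and this share are not on the same basis. Capitals mark 2 overlapping matches, 144 and 139 bases before the start (chr1:55087933-55088182, minus strand).
Hspd1: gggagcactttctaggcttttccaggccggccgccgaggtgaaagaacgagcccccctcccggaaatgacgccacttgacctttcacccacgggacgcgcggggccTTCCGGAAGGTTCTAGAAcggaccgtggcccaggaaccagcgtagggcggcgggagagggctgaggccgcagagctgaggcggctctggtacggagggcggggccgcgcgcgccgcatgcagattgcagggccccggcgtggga
The same genomic letters lie 89 and 84 bases before the start of Hspe1, the partner subunit gene read in the other direction. Hspe1 was at 31.2, 20.2 and 28.4 CPM in SNX-5422+PAO skin, against 16.7, 21.8 and 20.5 CPM in Control skin and did not pass (log2 fold change 0.43 ± 0.16, adjusted p = 0.066).

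Metallothioneins were raised in part. Of 7 genes of metallothioneins, their regulator Mtf1 and zinc transport, Mt1 and Mt3 rose and the median was -0.03. Mt1, whose product binds zinc and arsenic through cysteine thiols, was at 219.9, 133 and 161 CPM in SNX-5422+PAO skin, 353, 311 and 326 CPM in PAO skin and 67.9, 44.8 and 49.1 CPM in Control skin. No group overlapped with another, and Mt1 rose by 1.67 ± 0.20 on the log2 scale (adjusted p = 6.4e-05), also without library 3 (adjusted p = 0.039). Mt1 was lower than in PAO skin (log2 fold change -0.94 ± 0.20, adjusted p = 0.01). Mt3 was at 2.73, 2.02 and 4.45 CPM in SNX-5422+PAO skin, against 1.12, 1.21 and 1.2 CPM in Control skin. Mt3 rose by 1.37 ± 0.30 on the log2 scale (adjusted p = 0.0046), which was lost without library 3 (adjusted p = 0.2). Mt2 was counted at 0.455, 1.19 and 1.48 CPM in SNX-5422+PAO skin, 2.44, 2.43 and 1.21 CPM in PAO skin and 0.748, 0.371 and 0.421 CPM in Control skin and did not pass (log2 fold change 1.03 ± 0.47, adjusted p = 0.14). Mt4, of stratified epithelia, was at 0.91, 11.2 and 8.02 CPM in SNX-5422+PAO skin, against 8.07, 4.55 and 7.84 CPM in Control skin, with library 1 of SNX-5422+PAO skin far below libraries 2 and 3. Slc30a1, a zinc exporter, was at 58, 81.7 and 68.4 CPM in SNX-5422+PAO skin, against 89.7, 70.2 and 86.1 CPM in Control skin. Mtf1 was at 38.7, 38 and 37.5 CPM in SNX-5422+PAO skin, against 34.8, 44.8 and 39.2 CPM in Control skin. Slc39a10, a zinc importer, was at 64, 132 and 102 CPM in SNX-5422+PAO skin, against 124, 84.3 and 105 CPM in Control skin, and all 3 genes overlapped between the groups. The Mt1 promoter is shown because Mt1 was the raised member with a metal response element, the motif of Mtf1, searched as TGCGCNC or TGCACNC on both strands. The motif was in a promoter of 4 of the 7 genes (Mt1, Mt2, Mt4 and Slc30a1). Counted over promoters rather than genes, it was in 21.4% of all promoters of this length, so a match is common. Capitals mark the match 23 bases before the start (chr8:94178839-94179088, plus strand, GRCm38.p6).
Mt1: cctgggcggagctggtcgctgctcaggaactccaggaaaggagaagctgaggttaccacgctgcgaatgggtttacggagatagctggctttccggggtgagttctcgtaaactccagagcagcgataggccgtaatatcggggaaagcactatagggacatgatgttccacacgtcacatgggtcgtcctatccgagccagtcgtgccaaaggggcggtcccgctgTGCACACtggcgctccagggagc

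Most NRF2 targets were raised, and several were lower than in PAO skin. Of 17, 11 rose and 1 fell against Control skin, with a median of 0.69 (1 rose without library 3), and against PAO skin 7 were lower and none was higher. Over all genes 2 were lower than in PAO skin without library 3, so at most 2 of these 7 could be left. Sulfiredoxin (Srxn1), which repairs peroxiredoxins, was at 75.3, 55.4 and 65.5 CPM in SNX-5422+PAO skin, 171, 84.9 and 139.7 CPM in PAO skin and 20.4, 29.6 and 26.3 CPM in Control skin. Srxn1 rose by 1.36 ± 0.20 on the log2 scale (adjusted p = 0.00027) and was lower than in PAO skin (log2 fold change -1.01 ± 0.19, adjusted p = 0.0062). Each of the 3 groups was separate from the others. Haem oxygenase 1 (Hmox1) was at 48.4, 31.2 and 34.8 CPM in SNX-5422+PAO skin, 278, 101 and 207 CPM in PAO skin and 23.5, 20.1 and 24.9 CPM in Control skin. It was lower than in PAO skin (log2 fold change -2.36 ± 0.27, adjusted p = 0.00022). The SNX-5422+PAO libraries lay above the Control libraries, but against Control skin Hmox1 did not pass (log2 fold change 0.74 ± 0.27, adjusted p = 0.066). Sqstm1, the autophagy receptor p62, was at 311, 257 and 276 CPM in SNX-5422+PAO skin, 387, 323 and 365 CPM in PAO skin and 103, 152 and 128 CPM in Control skin. Sqstm1 rose by 1.14 ± 0.13 on the log2 scale (adjusted p = 4.5e-05). It did not pass against PAO skin (log2 fold change -0.35 ± 0.13, adjusted p = 0.13). The ferritin light chain Ftl1 rose by 0.78 ± 0.13, and Abcc4, an exporter of organic anions, fell (log2 fold change -0.45 ± 0.11, adjusted p = 0.0075). Among 12 tested glutathione transferases and arsenic enzymes, 3 rose and none fell, with a median of 0.08, and with total counts none rose and 2 fell. As3mt, the methyltransferase that methylates arsenic, was at 10.2, 8.25 and 8.08 CPM in SNX-5422+PAO skin, against 4.22, 6.64 and 4.8 CPM in Control skin. As3mt rose by 0.76 ± 0.18 on the log2 scale (adjusted p = 0.0084). Gstp1 was at 48.9, 42.6 and 38.9 CPM in SNX-5422+PAO skin, against 26.9, 31.7 and 24.8 CPM in Control skin. Gstp1 rose by 0.65 ± 0.11 on the log2 scale (adjusted p = 0.00074). Mgst3 rose too (log2 fold change 0.42 ± 0.09, adjusted p = 0.0054), and none of the 3 passed without library 3.

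**Figure D3:**
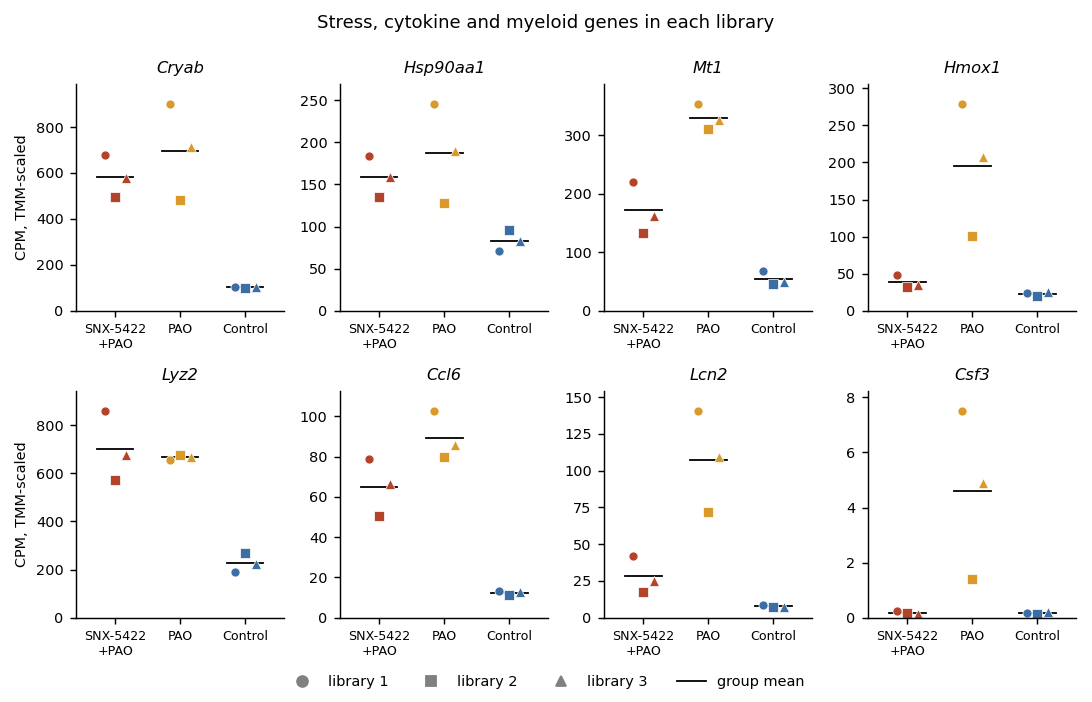
TMM-scaled CPM of 8 stress, cytokine and myeloid genes in each library, with SNX-5422+PAO at the left, PAO in the middle and Control at the right of each panel; shapes mark libraries 1 to 3 and the black line the group mean. Cryab, Hsp90aa1, Lyz2 and Ccl6 lay above Control in SNX-5422+PAO skin, Mt1 and Lcn2 lay between PAO and Control, and Hmox1 and Csf3 lay below PAO.

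Most proteasome genes and some other protein stress genes rose, with calls that depended on the scaling and the libraries used. Of 15 proteasome subunits 13 rose and none fell, with a median of 0.44. None passed without library 3 or with scaling by total counts, 1 rose with the mitochondrial ribosomal RNA share and 2 with the muscle share as a covariate. Leaving out single libraries gave 3 to 13 that rose, with 3 left without SNX-5422+PAO library 1. Psmd11, a lid subunit, was at 153, 143 and 143 CPM in SNX-5422+PAO skin, 194, 173 and 191 CPM in PAO skin and 99.8, 102 and 95.6 CPM in Control skin. Psmd11 rose by 0.56 ± 0.08 on the log2 scale (adjusted p = 0.00018). Psmd11 was lower than in PAO skin (log2 fold change -0.35 ± 0.08, adjusted p = 0.014). Of 15 endoplasmic reticulum chaperone genes 6 rose and none fell, with a median of 0.26. Hspa5, the chaperone BiP, was at 319.8, 278 and 307 CPM in SNX-5422+PAO skin, 383, 242 and 343 CPM in PAO skin and 140.4, 196 and 158 CPM in Control skin. Hspa5 rose by 0.87 ± 0.15 on the log2 scale (adjusted p = 0.001). Dnajb9, a BiP partner, was at 44.8, 36.6 and 34.6 CPM in SNX-5422+PAO skin, against 20.7, 20.7 and 19.9 CPM in Control skin (log2 fold change 0.92 ± 0.10, adjusted p = 3.6e-05), and it was the 1 member left without library 3. Of 14 genes of the ATF4 stress response 4 rose and 2 fell, with a median of 0.21 (1 rose and none fell without library 3). The transcription factor Atf3 was at 55.3, 73.6 and 65.2 CPM in SNX-5422+PAO skin, 24.8, 35.5 and 30.6 CPM in PAO skin and 15.8, 25.2 and 19.6 CPM in Control skin. Atf3 rose by 1.68 ± 0.16 on the log2 scale (adjusted p = 1.1e-05) and was higher than in PAO skin (log2 fold change 1.09 ± 0.16, adjusted p = 0.0014), with no overlap. Trib3, an inhibitor of Akt and ATF4, was at 4.78, 3.32 and 4.04 CPM in SNX-5422+PAO skin, 11, 5.19 and 9.2 CPM in PAO skin and 2.35, 2.32 and 2.17 CPM in Control skin. Trib3 rose by 0.83 ± 0.25 on the log2 scale (adjusted p = 0.03) and was lower than in PAO skin (log2 fold change -1.07 ± 0.24, adjusted p = 0.014). The Trib3 call against Control was kept in 12 of 23 alternatives and was lost without library 3 (adjusted p = 0.32). Of 16 p53 targets 4 rose and 1 fell, with a median of 0.01 (2 rose and none fell without library 3), and with total counts 2 rose and 6 fell. The receptor Eda2r was at 44.5, 44.3 and 42.7 CPM in SNX-5422+PAO skin, 44.6, 48.3 and 45.7 CPM in PAO skin and 11.7, 14.9 and 14.3 CPM in Control skin. Eda2r rose by 1.68 ± 0.13 on the log2 scale (adjusted p = 7.2e-07). Phlda3, an Akt inhibitor, was at 114, 91.7 and 98.5 CPM in SNX-5422+PAO skin, 65.5, 74.6 and 77.4 CPM in PAO skin and 45.9, 49.5 and 43.9 CPM in Control skin. Phlda3 rose by 1.13 ± 0.12 on the log2 scale (adjusted p = 1.6e-05). The cell cycle inhibitor Cdkn1a was at 70.3, 60.2 and 70.5 CPM in SNX-5422+PAO skin, 102, 86.4 and 95.4 CPM in PAO skin and 87.4, 79.4 and 82.2 CPM in Control skin. All SNX-5422+PAO libraries were below those of both other groups. Cdkn1a did not pass (log2 fold change -0.31 ± 0.11, adjusted p = 0.062) against Control and was lower than in PAO skin (log2 fold change -0.50 ± 0.11, adjusted p = 0.014).

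Some myeloid recruitment genes were near Control skin and others were raised. Of 14 tested cytokines and chemokines that recruit neutrophils, 7 rose and 1 fell, with a median of 1.25, and none rose without library 3. Against PAO skin 8 were lower and 1 was higher. The neutrophil growth factor Csf3 was at 0.228, 0.178 and 0.135 CPM in SNX-5422+PAO skin, 7.49, 1.41 and 4.9 CPM in PAO skin and 0.16, 0.139 and 0.194 CPM in Control skin. All 3 PAO libraries lay above all SNX-5422+PAO and Control libraries, which overlapped. Csf3 was lower than in PAO skin (log2 fold change -4.63 ± 0.60, adjusted p = 0.00059) and did not pass (log2 fold change 0.11 ± 0.93, adjusted p = 0.95) against Control. The neutrophil chemokine Cxcl1 was at 2.1, 2.31 and 3.23 CPM in SNX-5422+PAO skin, 14.4, 4.61 and 12.2 CPM in PAO skin and 1.07, 1.25 and 1.43 CPM in Control skin. Cxcl1 was lower than in PAO skin (log2 fold change -2.05 ± 0.31, adjusted p = 0.0016). Cxcl5, another neutrophil chemokine, was at 9.78, 2.31 and 5.52 CPM in SNX-5422+PAO skin, 31.5, 9.55 and 21.5 CPM in PAO skin and 0.962, 1.21 and 0.713 CPM in Control skin. Cxcl5 rose by 2.65 ± 0.52 on the log2 scale (adjusted p = 0.0025) and was lower than in PAO skin (log2 fold change -1.82 ± 0.40, adjusted p = 0.013). The chemokine Cxcl3 was at 3.13, 2.73 and 3.84 CPM in SNX-5422+PAO skin, 1.22, 1.09 and 1.21 CPM in PAO skin and 0.16, 0.511 and 0.518 CPM in Control skin. Cxcl3 rose by 2.94 ± 0.49 on the log2 scale (adjusted p = 0.00072). Interleukin 1β (Il1b) was at 19.9, 10.7 and 12.7 CPM in SNX-5422+PAO skin, 15.3, 11.3 and 12 CPM in PAO skin and 4.01, 5.06 and 4.34 CPM in Control skin. Il1b rose by 1.69 ± 0.32 on the log2 scale (adjusted p = 0.0018). Both lay above Control in every library, and neither passed without library 3 (adjusted p = 0.056 for Cxcl3 and 0.11 for Il1b). Tumour necrosis factor (Tnf) was at 7.57, 6.82 and 7.14 CPM in SNX-5422+PAO skin, 2.83, 4.55 and 3.64 CPM in PAO skin and 4.11, 3.48 and 4.41 CPM in Control skin. Tnf rose by 0.84 ± 0.23 on the log2 scale (adjusted p = 0.019) and was higher than in PAO skin (log2 fold change 0.97 ± 0.24, adjusted p = 0.023). Il1a, the form stored in keratinocytes, was at 1.08, 0.949 and 1.95 CPM in SNX-5422+PAO skin, 1.22, 1.35 and 1.42 CPM in PAO skin and 4.22, 4.13 and 4.21 CPM in Control skin, and it fell (log2 fold change -1.67 ± 0.28, adjusted p = 0.00079).

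Among 15 tested neutrophil markers, 4 rose and 1 fell against Control, with a median of 0.76, and 8 were lower than in PAO skin. Against Control none of these calls was left without library 3. The sums of the 16 markers were taken without TMM factors. They were 85.9 ± 26.7 CPM in SNX-5422+PAO skin, 249 ± 72.2 CPM in PAO skin and 85.7 ± 5.71 CPM in Control skin. Mean TMM factors were 0.839 in SNX-5422+PAO skin and 1.06 in Control skin. The near-equal sums of these groups therefore rest on scaling by total counts. With TMM factors the sum would be higher in SNX-5422+PAO skin and lower in Control skin. The granule protein lipocalin 2 (Lcn2), also made by keratinocytes, was at 42, 17.2 and 25.1 CPM in SNX-5422+PAO skin, 140.4, 71.9 and 109 CPM in PAO skin and 8.6, 7.01 and 7.13 CPM in Control skin. Lcn2 rose by 1.90 ± 0.30 on the log2 scale (adjusted p = 0.00051) and was lower than in PAO skin (log2 fold change -1.93 ± 0.28, adjusted p = 0.0012). S100a8, an abundant neutrophil calcium-binding protein, was at 6.03, 3.97 and 4.51 CPM in SNX-5422+PAO skin, 27.1, 21.9 and 23.9 CPM in PAO skin and 3.26, 3.95 and 3.92 CPM in Control skin. S100a8 was lower than in PAO skin (log2 fold change -2.32 ± 0.52, adjusted p = 0.014). Against Control it did not pass (log2 fold change 0.38 ± 0.56, adjusted p = 0.68), although the libraries did not overlap. The granule gene Ngp was at 0, 0.415 and 0.135 CPM in SNX-5422+PAO skin, 5.22, 1.03 and 3.29 CPM in PAO skin and 0.214, 0.186 and 0.0972 CPM in Control skin, close to 0 in SNX-5422+PAO and Control libraries. Ly6g, a defining surface marker, had 4 counts over the SNX-5422+PAO libraries and 1 over the Control libraries and was not tested.

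Most monocyte and macrophage genes were raised. Of 17 markers 11 rose and none fell, with a median of 0.74, and 1 rose without library 3. The sums of these markers were also taken without TMM factors. They were 848 ± 198 CPM in SNX-5422+PAO skin, 1037 ± 121 CPM in PAO skin and 435 ± 20.7 CPM in Control skin. Lysozyme 2 (Lyz2) was at 858, 571 and 676 CPM in SNX-5422+PAO skin, 656, 676 and 669.6 CPM in PAO skin and 188, 269 and 224 CPM in Control skin. Lyz2 rose by 1.63 ± 0.17 on the log2 scale (adjusted p = 2.4e-05). SNX-5422+PAO and PAO skin overlapped, and Control skin was lower. Cd14, the endotoxin co-receptor, was at 35.7, 20.4 and 29.2 CPM in SNX-5422+PAO skin, 38.8, 18.6 and 30.0 CPM in PAO skin and 5.77, 9.1 and 6.64 CPM in Control skin. Cd14 rose by 1.99 ± 0.33 on the log2 scale (adjusted p = 0.00066). Ccr2, the receptor of blood monocytes, was at 12.2, 8.48 and 11.9 CPM in SNX-5422+PAO skin, 19.9, 10.3 and 15.1 CPM in PAO skin and 4.54, 4.18 and 5.22 CPM in Control skin. Ccr2 rose by 1.21 ± 0.22 on the log2 scale (adjusted p = 0.0016). The tissue macrophage receptor Mrc1 was at 67.8, 37.8 and 49.9 CPM in SNX-5422+PAO skin, 131, 88.9 and 112 CPM in PAO skin and 34.6, 33.7 and 37.5 CPM in Control skin. Mrc1 was lower than in PAO skin (log2 fold change -1.09 ± 0.22, adjusted p = 0.0092) and did not pass (log2 fold change 0.55 ± 0.23, adjusted p = 0.099) against Control. Against PAO skin 6 of the 17 were lower. Of 13 tested CC chemokines 3 rose and 1 fell, and without library 3 there were 2 that rose and none that fell. Ccl6 was at 78.6, 50.4 and 66.2 CPM in SNX-5422+PAO skin, 102, 79.8 and 85.7 CPM in PAO skin and 13.3, 11.2 and 12.7 CPM in Control skin. Ccl6 rose by 2.39 ± 0.28 on the log2 scale (adjusted p = 4.7e-05). Ccl9 was at 66.9, 44.4 and 52 CPM in SNX-5422+PAO skin, 68.7, 50.2 and 59.3 CPM in PAO skin and 15.7, 12.8 and 14.1 CPM in Control skin. Ccl9 rose by 1.94 ± 0.25 on the log2 scale (adjusted p = 9.1e-05). Both are myeloid chemokines of mice. Ccl27a, a keratinocyte chemokine for skin T cells, fell (log2 fold change -1.06 ± 0.23, adjusted p = 0.0041). The acute-phase gene Saa3 was at 50.4, 25.7 and 36.9 CPM in SNX-5422+PAO skin, 274, 78.2 and 182 CPM in PAO skin and 2.67, 3.25 and 3.18 CPM in Control skin, with no overlap between any pair of groups. Saa3 rose by 3.62 ± 0.41 on the log2 scale (adjusted p = 3.8e-05) and was lower than in PAO skin (log2 fold change -2.24 ± 0.34, adjusted p = 0.0016).

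Of 18 interferon-stimulated genes, 10 rose and none fell, with a median of 0.82 and none left without library 3. Oas1a, a sensor of double-stranded RNA, was at 4.61, 4.75 and 5.86 CPM in SNX-5422+PAO skin, 5.88, 3.91 and 6.88 CPM in PAO skin and 1.44, 1.95 and 1.68 CPM in Control skin. Oas1a rose by 1.57 ± 0.27 on the log2 scale (adjusted p = 0.00095). Oasl1, of the same family, was at 3.64, 3.2 and 2.9 CPM in SNX-5422+PAO skin, 15.5, 4.16 and 9.4 CPM in PAO skin and 0.748, 1.11 and 0.94 CPM in Control skin. Oasl1 rose by 1.79 ± 0.40 on the log2 scale (adjusted p = 0.0059) and was lower than in PAO skin (log2 fold change -1.58 ± 0.35, adjusted p = 0.013). Slfn4, an interferon-responsive myeloid gene, was among the 4 largest falls against PAO skin, at 9.84, 5.99 and 9.43 CPM in SNX-5422+PAO skin, 83.9, 17.7 and 53 CPM in PAO skin and 1.6, 1.58 and 1.43 CPM in Control skin (log2 fold change -2.62 ± 0.41, adjusted p = 0.0018). Another was Retnlg, a neutrophil product, at 0.739, 0.475 and 0.943 CPM in SNX-5422+PAO skin, against 9.27, 3.72 and 5.76 CPM in PAO skin (log2 fold change -3.12 ± 0.73, adjusted p = 0.018). The phosphate hormone Fgf23 was at 0.569, 0.653 and 1.08 CPM in SNX-5422+PAO skin, against 7.33, 1.28 and 7.23 CPM in PAO skin (log2 fold change -2.81 ± 0.58, adjusted p = 0.0092), and Klhdc8a was at 0.853, 1.6 and 1.48 CPM in SNX-5422+PAO skin, against 8.22, 8.26 and 9.1 CPM in PAO skin (log2 fold change -2.70 ± 0.30, adjusted p = 0.00017). None of these 4 genes overlapped between SNX-5422+PAO and PAO skin, which the rule that named them required. None of the 4 passed without library 3 (adjusted p = 0.25 for Slfn4, 0.27 for Retnlg, 0.33 for Fgf23 and 0.11 for Klhdc8a). The Retnlg call was kept in 17 of 23 alternatives. Of 12 complement genes 2 rose and 1 fell against Control, at a median of 0.17, and 4 were lower than in PAO skin. The shares against Control, 16.7% and 8.33%, stood beside 10.7% and 8.66% over all genes, and none passed without library 3. C3ar1, a complement receptor of myeloid cells, was at 26.4, 18.7 and 19.7 CPM in SNX-5422+PAO skin, 44.7, 43.4 and 39.4 CPM in PAO skin and 12.5, 12 and 13.8 CPM in Control skin. C3ar1 rose by 0.76 ± 0.20 on the log2 scale (adjusted p = 0.014) and was lower than in PAO skin (log2 fold change -0.97 ± 0.19, adjusted p = 0.0075).

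Several genes of epidermal T cells and Langerhans cells fell, and mast cell genes were mixed. Of 13 tested T cell and Langerhans cell markers 5 fell and none rose, with a median of -0.74. Without library 3, 1 of them fell, and none did with the mitochondrial ribosomal RNA share as a covariate. The T cell receptor complex gene Cd3e was at 1.82, 1.9 and 2.02 CPM in SNX-5422+PAO skin, 1.72, 2.56 and 2.63 CPM in PAO skin and 8.28, 4.69 and 5.73 CPM in Control skin. Cd3e fell by 1.70 ± 0.30 on the log2 scale (adjusted p = 0.0011). Langerin (Cd207), which defines Langerhans cells, was at 1.82, 0.475 and 1.01 CPM in SNX-5422+PAO skin, 1.28, 0.769 and 0.86 CPM in PAO skin and 4.01, 5.43 and 5.99 CPM in Control skin. Cd207 fell by 2.21 ± 0.41 on the log2 scale (adjusted p = 0.0015). Neither SNX-5422+PAO set overlapped with Control. Cd74, of antigen-presenting cells in general, was at 139, 106 and 129.8 CPM in SNX-5422+PAO skin, against 131, 110.3 and 119.7 CPM in Control skin, with overlap (log2 fold change 0.05 ± 0.13, adjusted p = 0.82). Skint9, an epidermal immunoglobulin-like gene of a family that selects epidermal γδ T cells, was among the largest falls, at 1.99, 0.89 and 1.21 CPM in SNX-5422+PAO skin, 3.39, 4.8 and 3.94 CPM in PAO skin and 19.2, 10.3 and 19.5 CPM in Control skin. Skint9 fell by 3.57 ± 0.32 on the log2 scale (adjusted p = 5.7e-06). Of 10 mast cell markers 5 fell and none rose, with a median of -1.94, or -1.88 with Fcer1a at the bound set by 3 counts over the group, and none passed without library 3 or with the mitochondrial ribosomal RNA share as a covariate. The tryptase gene Tpsab1 went the other way, at 1.02, 0.178 and 0.741 CPM in SNX-5422+PAO skin, against 0.16, 0.139 and 0.162 CPM in Control skin, with no overlap (log2 fold change 2.03 ± 0.84, adjusted p = 0.11). Along with falls, 2 members rose with DESeq2, without the low-count filter and with the replicate block, and a fit of the compared groups alone gave 1 that rose and 1 that fell. Leaving out single libraries gave 1 to 6 that fell, with 1 left without SNX-5422+PAO library 2 or 3 or without Control library 1. The protease gene Cpa3 was at 1.65, 0.534 and 0.674 CPM in SNX-5422+PAO skin, 5.5, 1.28 and 2.98 CPM in PAO skin and 10.8, 1.02 and 5.41 CPM in Control skin. Library 2 of Control skin was far below libraries 1 and 3 and overlapped with SNX-5422+PAO skin, and Cpa3 fell by 2.55 ± 0.72 on the log2 scale (adjusted p = 0.021). The defining receptor gene Fcer1a had no count in SNX-5422+PAO skin and 16 in Control skin, so that it fell by at least 1.89 on the log2 scale (adjusted p = 0.025). Kit, which melanocytes share, was at 10.1, 25.2 and 18.7 CPM in SNX-5422+PAO skin, against 17.3, 7.43 and 16.8 CPM in Control skin. Kit did not pass (log2 fold change 0.38 ± 0.31, adjusted p = 0.44).

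Matrix protease genes were raised in part, and most were lower than in PAO skin. Of 16 proteases and inhibitors 7 rose and none fell against Control, with a median of 0.39 and none left without library 3, and 11 were lower than in PAO skin. Over all genes 2 were lower than in PAO skin without library 3, so at most 2 of these 11 could be left. With total counts 2 rose and 3 fell against Control. Stromelysin 1 (Mmp3) was at 29.6, 14.8 and 22.1 CPM in SNX-5422+PAO skin, 178, 66.4 and 136 CPM in PAO skin and 5.34, 6.96 and 7.06 CPM in Control skin, and no group overlapped with another. Mmp3 rose by 1.77 ± 0.35 on the log2 scale (adjusted p = 0.0025) and was lower than in PAO skin (log2 fold change -2.52 ± 0.33, adjusted p = 0.00059). Collagenase 3 (Mmp13) was at 12.7, 6.7 and 9.36 CPM in SNX-5422+PAO skin, 77.2, 33.8 and 60.5 CPM in PAO skin and 15.3, 7.61 and 12.9 CPM in Control skin. Mmp13 was lower than in PAO skin (log2 fold change -2.57 ± 0.34, adjusted p = 0.00063) and overlapped with Control. Of 17 collagen and fibroblast genes 2 rose and 1 fell, at a median of 0.22. These shares, 11.8% and 5.88%, were near the 10.7% and 8.66% over all genes, and none passed without library 3. Fibronectin (Fn1), a provisional matrix protein, was at 948, 651 and 747 CPM in SNX-5422+PAO skin, 439, 454 and 439 CPM in PAO skin and 309, 256 and 286 CPM in Control skin, above both other groups. Fn1 rose by 1.46 ± 0.23 on the log2 scale (adjusted p = 0.00055) and was higher than in PAO skin (log2 fold change 0.82 ± 0.23, adjusted p = 0.048). Tenascin C (Tnc) rose against Control (log2 fold change 0.73 ± 0.19, adjusted p = 0.013). Col1a1, the main dermal collagen, was at 1909, 1176 and 1500.1 CPM in SNX-5422+PAO skin, 3183, 1678 and 2906 CPM in PAO skin and 1884, 1477 and 2147 CPM in Control skin. The SNX-5422+PAO and Control libraries overlapped, and Col1a1 was lower than in PAO skin (log2 fold change -0.76 ± 0.21, adjusted p = 0.045). Of 12 endothelial markers only the adhesion molecule Icam1 rose (log2 fold change 0.41 ± 0.11, adjusted p = 0.013). This share, 8.33%, was below the 10.7% raised over all genes. The Icam1 call was kept in 15 of 23 alternatives and was lost without library 3 (adjusted p = 0.12). Pecam1 was at 37.1, 16.4 and 23.5 CPM in SNX-5422+PAO skin, against 30.7, 16.7 and 24.7 CPM in Control skin with overlap. Among 12 tested adipocyte markers 2 rose and 5 fell, and none passed without library 3. The median was -0.76, and with the mitochondrial ribosomal RNA share as a covariate it was 0.20. Plin1, which coats fat droplets, was at 10.3, 6.11 and 6.33 CPM in SNX-5422+PAO skin, against 23, 8.82 and 19.6 CPM in Control skin. Plin1 fell by 1.17 ± 0.33 on the log2 scale (adjusted p = 0.021). The lipase Lipe was at 17.9, 11 and 12.5 CPM in SNX-5422+PAO skin, against 31.4, 16.5 and 23.8 CPM in Control skin. Lipe fell by 0.79 ± 0.20 on the log2 scale (adjusted p = 0.011). Both overlapped between the groups. The triglyceride lipase Pnpla2, which muscle also expresses, rose (log2 fold change 0.50 ± 0.12, adjusted p = 0.0088).

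Striated muscle genes gave the largest rises. Of 10 slow-fibre genes 8 rose and none fell against Control, with a median of 3.22 (3 without library 3), and against PAO skin 7 were higher, with a median of 3.56. The slow myosin heavy chain Myh7 was at 82.1, 11.7 and 34.2 CPM in SNX-5422+PAO skin, 0.111, 0 and 0 CPM in PAO skin and 0.16, 0.186 and 0.13 CPM in Control skin. All SNX-5422+PAO libraries were above all others, with library 2 the lowest, and Myh7 rose by 8.05 ± 0.88 on the log2 scale (adjusted p = 3e-05). PAO skin had 2 counts of Myh7, and the ratio of SNX-5422+PAO to PAO skin was 1165, with a 95% interval for counting error of 322 to 9625. The slow troponin I gene Tnni1 was at 9.84, 4.03 and 5.66 CPM in SNX-5422+PAO skin, 0.555, 0.192 and 0.657 CPM in PAO skin and 0.428, 0.511 and 0.551 CPM in Control skin, with no overlap between SNX-5422+PAO skin and either other group. Tnni1 rose by 3.68 ± 0.48 on the log2 scale (adjusted p = 0.0001) and was higher than in PAO skin (log2 fold change 3.75 ± 0.50, adjusted p = 0.00061). Cardiac and slow troponin C (Tnnc1) was at 11.8, 2.25 and 5.19 CPM in SNX-5422+PAO skin, 0.333, 0.384 and 0.506 CPM in PAO skin and 0.16, 0.139 and 0.0972 CPM in Control skin. Tnnc1 rose by 5.59 ± 0.65 on the log2 scale (adjusted p = 4.7e-05). The slow light chain Myl2 was at 15.8, 3.44 and 9.63 CPM in SNX-5422+PAO skin, 0.444, 0.0641 and 0.506 CPM in PAO skin and 0.481, 0.186 and 0.583 CPM in Control skin. Myl2 rose by 4.47 ± 0.65 on the log2 scale (adjusted p = 0.00025). Igfn1, a sarcomere-associated gene with the largest fold change against Control of all named, was at 131, 0.653 and 47.6 CPM in SNX-5422+PAO skin, 0.167, 0.192 and 0.202 CPM in PAO skin and 0.214, 0.371 and 0.0648 CPM in Control skin. Igfn1 rose by 8.19 ± 1.27 on the log2 scale (adjusted p = 0.00042). Library 2 was far below libraries 1 and 3 of SNX-5422+PAO skin, and without library 3 Igfn1 did not pass (adjusted p = 0.071). Mybph, a myosin-binding protein of the sarcomere, was even among the SNX-5422+PAO libraries, at 51.8, 58.8 and 56.7 CPM in SNX-5422+PAO skin, 9.1, 6.79 and 9.15 CPM in PAO skin and 6.31, 6.03 and 6.25 CPM in Control skin. Mybph rose by 3.17 ± 0.17 on the log2 scale (adjusted p = 3.4e-08) and was higher than in PAO skin (log2 fold change 2.73 ± 0.17, adjusted p = 5.1e-07), and its rise passed without library 3 (adjusted p = 0.0025).

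Genes of muscle strain and repair rose too. Of 16 tested 11 rose and none fell, with a median of 1.84, and 7 of them without library 3. Against PAO skin 2 were higher and 1 was lower. Ankrd1, a strain-induced gene of striated muscle, was at 139, 115 and 119 CPM in SNX-5422+PAO skin, 365, 233 and 310.3 CPM in PAO skin and 12.2, 3.9 and 8.07 CPM in Control skin, and no group overlapped with another. Ankrd1 rose by 3.96 ± 0.27 on the log2 scale (adjusted p = 2.5e-07) and was lower than in PAO skin (log2 fold change -1.28 ± 0.23, adjusted p = 0.004). Filamin C (Flnc), an actin crosslinker of the Z-disc, was at 3104, 2911 and 2837 CPM in SNX-5422+PAO skin, 2659, 1774 and 2512 CPM in PAO skin and 456, 537 and 479 CPM in Control skin. Flnc rose by 2.59 ± 0.17 on the log2 scale (adjusted p = 2.5e-07). Xirp1, which marks myofibre damage, was at 773, 824 and 783 CPM in SNX-5422+PAO skin, 656, 308 and 548 CPM in PAO skin and 76.2, 85.7 and 74.7 CPM in Control skin. Xirp1 rose by 3.33 ± 0.22 on the log2 scale (adjusted p = 2.5e-07). The perinatal myosin Myh8 was at 26.9, 22.4 and 20.7 CPM in SNX-5422+PAO skin, 9.33, 8.2 and 10.4 CPM in PAO skin and 5.29, 5.48 and 5.48 CPM in Control skin, above both other groups. Myh8 rose by 2.11 ± 0.22 on the log2 scale (adjusted p = 2.3e-05) and was higher than in PAO skin (log2 fold change 1.32 ± 0.22, adjusted p = 0.0023). Myostatin (Mstn), which restrains muscle growth, was at 99.6, 79 and 80.2 CPM in SNX-5422+PAO skin, 21.8, 28.9 and 22.4 CPM in PAO skin and 98.1, 208 and 113 CPM in Control skin. Mstn was higher than in PAO skin (log2 fold change 1.83 ± 0.29, adjusted p = 0.0018) and did not pass (log2 fold change -0.70 ± 0.27, adjusted p = 0.085) against Control. Mustn1, of the regenerating musculoskeletal system, was at 159, 99.7 and 112 CPM in SNX-5422+PAO skin, 228, 236 and 216 CPM in PAO skin and 15.5, 14.1 and 14.5 CPM in Control skin. Mustn1 rose by 3.08 ± 0.15 on the log2 scale (adjusted p = 1.2e-08) and was lower than in PAO skin (log2 fold change -0.87 ± 0.13, adjusted p = 0.0016). Of 13 tested fast-fibre genes 7 rose and none fell, with a median of 0.63 and none left without library 3. The fast light chain Myl1 was at 1047, 977 and 971 CPM in SNX-5422+PAO skin, 576, 575 and 556 CPM in PAO skin and 344, 701 and 463 CPM in Control skin. Myl1 rose by 0.99 ± 0.19 on the log2 scale (adjusted p = 0.0019). Library 2 was the highest in Control skin. With the mitochondrial ribosomal RNA share as a covariate, 6 slow-fibre and no fast-fibre genes rose. Whether the libraries held different amounts or kinds of muscle was not tested.

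**Figure D4:**
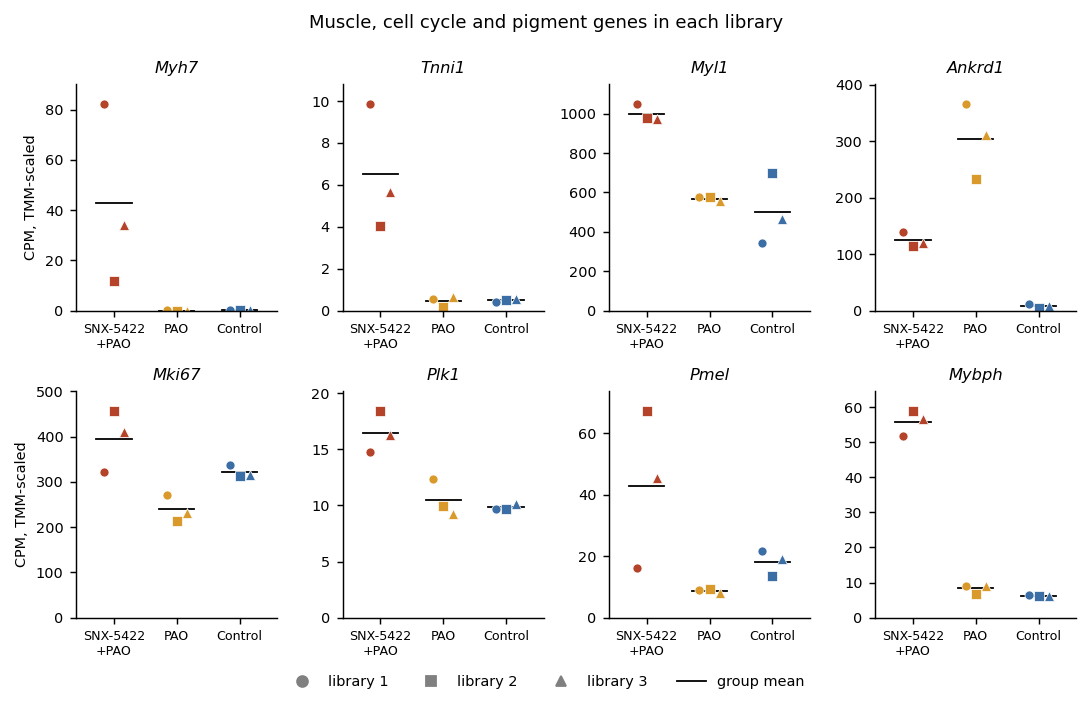
TMM-scaled CPM of 8 muscle, cell cycle and pigment genes in each library, with SNX-5422+PAO at the left, PAO in the middle and Control at the right of each panel; shapes mark libraries 1 to 3 and the black line the group mean. Myh7, Tnni1 and Mybph were high in SNX-5422+PAO skin alone, Ankrd1 was highest in PAO skin, and Pmel was low in library 1 of SNX-5422+PAO skin.

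Some cell cycle genes were higher than in Control skin and some than in PAO skin. Of 20 mitotic and S phase genes 11 rose and none fell against Control, with a median of 0.43, and 14 were higher and none lower against PAO skin, with a median of 0.56. Over all genes 3 were higher than in PAO skin without library 3, so at most 3 of these 14 could be left. None of the 11 passed without library 3 or with the mitochondrial ribosomal RNA share as a covariate, leaving out single libraries gave 5 to 14 that rose, and with total counts 1 rose and 1 fell. The mitotic kinase Plk1 was at 14.7, 18.4 and 16.3 CPM in SNX-5422+PAO skin, 12.3, 9.93 and 9.25 CPM in PAO skin and 9.73, 9.7 and 10.2 CPM in Control skin, and SNX-5422+PAO skin did not overlap with either other group. Plk1 rose by 0.74 ± 0.13 on the log2 scale (adjusted p = 0.0011) and was higher than in PAO skin (log2 fold change 0.65 ± 0.13, adjusted p = 0.0081). The spindle checkpoint kinase Bub1 was at 14.1, 19.2 and 16.8 CPM in SNX-5422+PAO skin, 10.2, 8.9 and 9.15 CPM in PAO skin and 12, 11.8 and 9.66 CPM in Control skin. Bub1 rose by 0.59 ± 0.13 on the log2 scale (adjusted p = 0.0046). The replicative helicase subunit Mcm4 was at 47.4, 55.6 and 50.1 CPM in SNX-5422+PAO skin, 39.3, 38.4 and 40.7 CPM in PAO skin and 37, 40.0 and 37.6 CPM in Control skin. Mcm4 rose by 0.42 ± 0.08 on the log2 scale (adjusted p = 0.0013). The ribonucleotide reductase subunit Rrm2 rose by 0.59 ± 0.11. The proliferation marker Mki67 was at 322, 456 and 409.7 CPM in SNX-5422+PAO skin, 271, 214 and 232 CPM in PAO skin and 338, 313 and 314 CPM in Control skin. Mki67 was higher than in PAO skin (log2 fold change 0.73 ± 0.11, adjusted p = 0.0018) but overlapped with Control skin (adjusted p = 0.079). Library 1 was the lowest SNX-5422+PAO library for Mki67, Plk1, Cdk1 and Mcm5. The promoter of Mcm5, another helicase subunit, is shown as that of a raised member with 2 overlapping E2F sites, the motif of the factors that switch on S phase genes. Mcm5 was at 35.8, 55.6 and 45.4 CPM in SNX-5422+PAO skin, 35.9, 30.8 and 28.1 CPM in PAO skin and 30.8, 36.1 and 33.6 CPM in Control skin. The groups overlapped for Mcm5, which rose by 0.44 ± 0.15 on the log2 scale (adjusted p = 0.046). The letters searched were TTTCGCGC and TTTGGCGC on both strands. Promoters were at hand for 17 of the 20 genes, and 3 of these genes held a site (Cdk1, Mcm5 and Mcm6). Counted over promoters rather than genes, 0.654% of all held one. Of the 3 genes, Cdk1 and Mcm5 were raised. Mcm6, which was not raised, held more matches than Mcm5, at 110, 106 and 47 bases before the start. Capitals mark the matches 153 and 149 bases before the start (chr8:75109259-75109508, plus strand, GRCm38.p6).
Mcm5: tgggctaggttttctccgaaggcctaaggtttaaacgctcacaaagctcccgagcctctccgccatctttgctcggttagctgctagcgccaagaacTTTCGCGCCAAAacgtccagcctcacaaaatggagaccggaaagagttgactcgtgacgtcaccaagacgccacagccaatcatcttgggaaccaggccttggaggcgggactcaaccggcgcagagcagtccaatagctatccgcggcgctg

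Some pigment genes passed as higher, in calls that rested on single libraries, and a myelin gene fell. Of 12 melanocyte and nerve markers 4 rose and 1 fell against Control, with a median of 0.22, and 5 were higher and none lower against PAO skin. Leaving out single libraries gave 0 to 5 that rose against Control, with none left without Control library 2 or 3, and none rose without library 3 of every group, with the mitochondrial ribosomal RNA share as a covariate or with total counts. The melanosome gene Pmel was at 16, 67.1 and 45.4 CPM in SNX-5422+PAO skin, 9.05, 9.29 and 8.04 CPM in PAO skin and 21.6, 13.5 and 19 CPM in Control skin. Pmel rose by 1.25 ± 0.36 on the log2 scale (adjusted p = 0.023) and was higher than in PAO skin (log2 fold change 2.28 ± 0.38, adjusted p = 0.0026). Library 1 of SNX-5422+PAO skin lay within the Control range, and libraries 2 and 3 lay above it. Without library 3 the adjusted p of Pmel was 0.28, and its call was kept in 13 of 23 alternatives. Tyrp1, a melanin enzyme, was at 17, 71.3 and 44.5 CPM in SNX-5422+PAO skin, 11.6, 6.47 and 10.5 CPM in PAO skin and 23, 12.1 and 19.5 CPM in Control skin (log2 fold change 1.28 ± 0.42, adjusted p = 0.042; without library 3, not past the threshold), and its call was kept in 8 of 23. Krt71 and Krt72 were also low in library 1 of this group. Myelin basic protein (Mbp) was at 49.8, 24.3 and 35.3 CPM in SNX-5422+PAO skin, 49.9, 48.4 and 48.6 CPM in PAO skin and 72.5, 58.5 and 61.8 CPM in Control skin, and it fell against Control (log2 fold change -0.82 ± 0.20, adjusted p = 0.01).

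Many energy genes were raised. Of 16 nuclear genes of oxidative phosphorylation 13 rose and none fell, with a median of 0.56, and of 16 hypoxia and glycolysis genes 9 rose and none fell, with a median of 0.46. None of either list passed without library 3, and with total counts 4 and 3 rose while 1 and 2 fell. With the share of muscle genes in the counts as a covariate, 9 of the phosphorylation genes and 4 of the glycolysis genes rose. With the mitochondrial ribosomal RNA share as a covariate, 1 phosphorylation gene and 1 glycolysis gene rose. Cytochrome c (Cycs) was at 73.1, 51.3 and 57.6 CPM in SNX-5422+PAO skin, 47.4, 39.1 and 47.1 CPM in PAO skin and 23.8, 36.6 and 31 CPM in Control skin. Cycs rose by 0.99 ± 0.15 on the log2 scale (adjusted p = 0.00037). Hexokinase 2 (Hk2) was at 429, 283 and 321 CPM in SNX-5422+PAO skin, 295, 240.2 and 289 CPM in PAO skin and 113, 196 and 142 CPM in Control skin. Hk2 rose by 1.19 ± 0.19 on the log2 scale (adjusted p = 0.00059). Lactate dehydrogenase A (Ldha) was at 931, 804 and 817 CPM in SNX-5422+PAO skin, against 319, 618 and 414 CPM in Control skin. Ldha rose by 0.92 ± 0.19 on the log2 scale (adjusted p = 0.0035). Library 2 was the highest in Control skin, as for Myl1. The carbonic anhydrase Car9, a hypoxia target not typical of muscle, was at 11.5, 7.3 and 9.03 CPM in SNX-5422+PAO skin, against 5.88, 6.03 and 4.63 CPM in Control skin. Car9 rose by 0.76 ± 0.23 on the log2 scale (adjusted p = 0.028). Of 10 tested mitochondrially encoded genes, mt-Co1 rose by 0.66 ± 0.18 and mt-Nd5 rose by 0.49 ± 0.16 on the log2 scale. The mt-Co1 call was kept in 15 of 23 alternatives and the mt-Nd5 call in 8. None of the 10 rose without library 3, or with the mitochondrial ribosomal RNA share or the muscle share as a covariate. None of 16 cytosolic ribosomal protein genes passed in either direction, and their median was 0.13.

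Genes of transcriptional regulators changed in part. Of 16 immediate early and AP-1 genes 1 rose and 6 fell, with a median of -0.08. Without library 3 none rose and 1 fell, as also with the mitochondrial ribosomal RNA share as a covariate. Fos was at 54.9, 73.6 and 72.7 CPM in SNX-5422+PAO skin, 68.6, 77.7 and 81 CPM in PAO skin and 32.2, 38.1 and 32.3 CPM in Control skin. Fos rose by 0.97 ± 0.14 on the log2 scale (adjusted p = 0.00024). Egr3 was at 59.2, 84.5 and 71.9 CPM in SNX-5422+PAO skin, 76.2, 78 and 72.2 CPM in PAO skin and 153, 122 and 133 CPM in Control skin (log2 fold change -0.92 ± 0.11, adjusted p = 6.3e-05), and Egr2 fell by 1.01 ± 0.16 on the log2 scale. Myc was at 46.9, 57.5 and 51.1 CPM in SNX-5422+PAO skin, 73.8, 77.3 and 69.5 CPM in PAO skin and 83.7, 63.8 and 71 CPM in Control skin. Myc fell by 0.49 ± 0.10 on the log2 scale (adjusted p = 0.0036) and was lower than in PAO skin (log2 fold change -0.50 ± 0.10, adjusted p = 0.0086). Of 16 clock genes 1 rose and 4 fell, or 6.25% and 25%, beside 10.7% and 8.66% over all genes. None passed without library 3 or with the mitochondrial ribosomal RNA share as a covariate. The 1 rise, of Bhlhe41, was kept in 4 of 23 alternatives. The fall with the smallest p was that of the repressor Nr1d1, at 69.4, 53.3 and 60.3 CPM in SNX-5422+PAO skin, against 103, 85.9 and 89.6 CPM in Control skin. Nr1d1 fell by 0.60 ± 0.11 on the log2 scale (adjusted p = 0.0013). Of 14 glucocorticoid receptor targets, HSP90 being the chaperone of this receptor, 3 rose and none fell against Control, with a median of 0.22 (2 rose and 2 fell with total counts), and 5 were lower than in PAO skin. Against Control none passed without library 3, and 1 rose with the mitochondrial ribosomal RNA share as a covariate. The repressor Tsc22d3 was at 129, 105 and 104 CPM in SNX-5422+PAO skin, 78.6, 112 and 90.1 CPM in PAO skin and 69.1, 89.6 and 78.6 CPM in Control skin. Tsc22d3 rose by 0.51 ± 0.13 on the log2 scale (adjusted p = 0.013). The Tsc22d3 call was kept in 16 of 23 alternatives and was lost without library 3 (adjusted p = 0.2). Fkbp5 overlapped with Control (log2 fold change 0.15 ± 0.11, adjusted p = 0.4). Of 15 cell death genes 5 rose and 3 fell. Without library 3 none rose and 2 fell, and with the mitochondrial ribosomal RNA share as a covariate none rose and 1 fell. Gasdermin A (Gsdma), a pore-forming protein of differentiated keratinocytes, was at 18.6, 20.5 and 19.2 CPM in SNX-5422+PAO skin, 30.8, 31.8 and 27.6 CPM in PAO skin and 73.5, 46.4 and 70.7 CPM in Control skin. Gsdma fell by 1.71 ± 0.16 on the log2 scale (adjusted p = 7.8e-06). Il18, an inflammasome substrate of keratinocytes, was at 4.21, 2.37 and 3.84 CPM in SNX-5422+PAO skin, against 14.4, 11.7 and 15 CPM in Control skin. Il18 fell by 1.98 ± 0.24 on the log2 scale (adjusted p = 6.3e-05). The inflammasome sensor Nlrp3 was at 7.45, 7 and 6.06 CPM in SNX-5422+PAO skin, 10.8, 6.15 and 7.43 CPM in PAO skin and 2.03, 1.86 and 2.33 CPM in Control skin. Nlrp3 rose by 1.71 ± 0.32 on the log2 scale (adjusted p = 0.0017).

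RNA of other tissues was also counted. Genes of the pancreas took 0.183% ± 0.0366 of gene counts in SNX-5422+PAO skin, 0.14% ± 0.0292 in PAO skin and 0.185% ± 0.139 in Control skin (SD, n = 3 each), and none of 15 tested passed. The insulin gene Ins2 was at 774, 867 and 1175 CPM in SNX-5422+PAO skin, 489, 701 and 787 CPM in PAO skin and 1220.3, 446 and 430.1 CPM in Control skin. Library 1 was the highest of Control skin. How this RNA came to be in the skin libraries was not tested. Of 5 tested red blood cell genes 2 fell and none rose, and none passed without library 3. The anion exchanger Slc4a1 was at 0.228, 0 and 0.674 CPM in SNX-5422+PAO skin, against 3.05, 0.789 and 2.33 CPM in Control skin. Slc4a1 fell by 2.81 ± 0.70 on the log2 scale (adjusted p = 0.011). Alas2, of haem synthesis, was at 9.21, 7.53 and 9.5 CPM in SNX-5422+PAO skin, against 12.7, 13.8 and 11 CPM in Control skin. Alas2 fell by 0.51 ± 0.13 on the log2 scale (adjusted p = 0.013). The haemoglobin genes Hbb-bs, Hba-a1 and Hbb-bt did not pass.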

How the data were processed

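The deposited table holds the authors' read counts per gene for 15 skin libraries, 3 in each of 5 groups. An Aurum kit was used for the RNA and Ribo-Zero Gold for removal of ribosomal RNA, per the labels' protocols. The submitters' processing notes name bcl2fastq 2.18.0.12, Trim Galore 0.6.7, STAR 2.7.10a, HTSeq 2.0.2 and GRCm39; no release of the annotation and no strand setting is given in the sources used here, and reads of overlapping antisense genes cannot be told apart. The 5 summary entries were removed (reads in no feature were 35.2% to 46.9% of the total in SNX-5422+PAO and Control libraries), and 52093 of 53700 identifiers had symbols. Counts from all 15 libraries were fitted with edgeR 4.0.16 (filterByExpr, TMM scaling, quasi-likelihood test, Benjamini-Hochberg adjustment over 22529 genes), after the script had been tested on simulated data. DESeq2 1.42.0, other scalings and subsets were alternatives.

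The genes named were the 12 largest rises and falls against Control and the 4 largest against PAO (called, at least 5 CPM, no overlap, ordinary symbol), up to 3 raised and 3 lowered members per list by p, and the HSP90 genes. Other genes named, among them Krt10, Flg, Krt14, Hmox1, Csf3, Mki67 and Pmel, were chosen with their values known, and the members and lists were chosen with earlier results of these data known. Promoter sequences are RefSeq's on GRCm38.p6, which is not the build of the counts. Some listed genes are counted in their lists but not reported here by name.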

Additional observations from a re-analysis of the deposited data

How the results depend on the processing

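Among 163 calls of named genes, most against Control and a few of the largest changes against PAO, 162 kept their direction and call with DESeq2, 162 with RLE scaling, 162 without the low-count filter, 158 with upper-quartile scaling, 128 with total counts, 123 with the muscle share as a covariate and 64 with the mitochondrial ribosomal RNA share as a covariate. Itgb4 turned to -0.045 with total counts, and with the mitochondrial covariate Cfd turned to 0.16 and Plin1 to 0.25 on the log2 scale; none of the 3 reversed values passed, and the cause was not tested. Total counts gave 646 raised and 6848 lowered genes against Control, and 335 higher and 1567 lower genes against PAO. The mitochondrial covariate gave 289 raised and 163 lowered genes against Control, and the muscle covariate 1056 and 1016. A fit of the 6 compared libraries alone raised 1375 genes against Control. Against PAO, 876 genes were higher without the filter and 886 with DESeq2.

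Leaving out 1 library at a time gave 1236 to 2688 raised and 1183 to 2325 lowered genes against Control, and 239 to 714 higher and 296 to 975 lower genes against PAO. Counts moved by over 1.5 times without SNX-5422+PAO library 1 (1303 raised) or 3 (1421 raised) and without Control library 1 (1276 raised, 1183 lowered) or 3 (1236 raised, 1191 lowered). Against PAO they did so without SNX-5422+PAO library 2 (270 higher, 296 lower) or 3 (259 and 327) and without PAO library 1 (295 and 366) or 3 (239 and 361). Alternatives chosen after seeing the data left out 1 library number in every group. Without library 3, 119 genes were raised and 164 lowered against Control, 3 were higher and 2 lower against PAO, and 40 of the 163 named calls were kept. Without library 1, 870 were raised and 1080 lowered, and without library 2, 3054 and 2564. With the replicate number as a block, 1752 genes were raised and 1540 lowered against Control, and 430 higher and 641 lower against PAO. Deviations of same-numbered SNX-5422+PAO and Control libraries correlated at -0.19, -0.15 and 0.07, and none of the 3 correlated best with its own number, so the numbers were not read as pairs. Against PAO the correlations were 0.11, 0.13 and 0.02, each highest with its own number. With 3 libraries a group, the spread between libraries, rather than a depth of 16.8 M to 28.9 M counts, sets the precision of abundant genes.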

Other observations

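Of the listed genes, some had too few counts to be tested. Il17a, the cytokine of T helper 17 and γδ T cells, had no count over the SNX-5422+PAO libraries and 3 over the Control libraries, and the T cell gene Cd8a had 16 in SNX-5422+PAO skin and 30 in Control skin. Gsta1, Gstm3, Csf2, Ccl17, Sprr3, Ucp1, Tnnc2, Mymk, Mymx, mt-Nd3, mt-Nd4l, mt-Atp8, Prss1, Hba-a2 and Ahsp were also not tested. Krt85 was not analysed here.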
